A study of Mus musculus with 9 samples.

Results

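Keratins and other intermediate filament genes were examined in podocytes sorted from diabetic and normal mice. The 9 genes were Krt7, Krt8, Krt18, Krt19, Krt20, Vim, Nes, Des and Lmna, and their members on the array were all probe sets whose platform gene symbol was exactly one of these names. These were 20 of the 45101 probe sets of the table, and the 9 genes were among 18193 genes tested with 1 probe set a gene. OVE26 mice, a transgenic model of early diabetes on the FVB strain in which pancreatic beta cells are damaged, had been crossed with mice whose podocytes carry eGFP, and this genotype is labelled OVE-GFP. Arrays came from 5 diabetic OVE26 mice and 4 normal FVB mice labelled wild type, all on the FVB background and aged 3 to 4 months. The promoter that drives eGFP, and whether the normal mice carried the same transgene, are not stated in the labels. In both groups glomeruli were isolated with magnetic beads after collagenase, dissociated with trypsin and sorted for fluorescent podocytes, and the RNA of each sort went onto its own array after amplification.

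Intermediate filaments are the rope-like part of the cytoskeleton that gives cells mechanical strength. Simple epithelia build them from keratins, in which a type II chain (Krt7 or Krt8) pairs with a type I chain (Krt18, Krt19 or Krt20), and an unpaired keratin chain is unstable. Mature podocytes are unusual epithelial cells that rely on vimentin (Vim) and nestin (Nes), whereas tubule, collecting duct and parietal epithelial cells carry keratins. Desmin (Des) belongs to muscle, mesangial cells and injured rodent podocytes, and lamins A and C, from Lmna, form filaments inside the nucleus. The comparison asks which of these filament genes differ in level between diabetic and normal podocyte sorts.

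The promoters of 3 of the 4 keratin genes that passed the test below are shown, since no window was found for Krt19, which also passed. The sequences are the 250 bases before each gene's start in RefSeq's GRCm38.p6, read 5′ to 3′ on the gene's own strand. The windows are chr15:101412153-101412402 (plus strand) for Krt7, chr15:102004343-102004592 (minus strand) for Krt8 and chr15:102027966-102028215 (plus strand) for Krt18. Capitals mark matches on either strand to GGGCGG.
Krt7: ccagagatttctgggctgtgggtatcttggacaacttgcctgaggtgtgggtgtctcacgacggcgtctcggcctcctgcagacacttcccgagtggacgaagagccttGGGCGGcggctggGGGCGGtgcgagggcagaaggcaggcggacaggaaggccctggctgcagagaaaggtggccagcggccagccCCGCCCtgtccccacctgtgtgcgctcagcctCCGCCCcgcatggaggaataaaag
Krt8: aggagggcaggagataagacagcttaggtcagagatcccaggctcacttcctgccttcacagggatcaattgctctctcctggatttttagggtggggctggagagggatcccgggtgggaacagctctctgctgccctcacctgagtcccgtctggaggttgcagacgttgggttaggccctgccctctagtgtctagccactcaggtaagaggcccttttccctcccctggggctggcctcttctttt
Krt18: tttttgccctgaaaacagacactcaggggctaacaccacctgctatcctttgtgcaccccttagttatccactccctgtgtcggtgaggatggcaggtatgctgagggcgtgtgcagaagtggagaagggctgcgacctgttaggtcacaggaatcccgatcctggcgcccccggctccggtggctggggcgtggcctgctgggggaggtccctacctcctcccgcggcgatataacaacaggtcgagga
All 3 genes lie on chromosome 15, with Krt8 on the opposite strand to Krt7 and Krt18. Both strands were searched for the TATA box letters TATAAA, for the GC box letters GGGCGG, and for the AP-1 type letters TGANTCA, where N is any base. None of these motifs overlapped another in the windows searched for these genes. Krt7 held GGGCGG 4 times, while Krt8 and Krt18 held none of the 3 motifs. GGGCGG was present in 32.7% of 32851 promoter windows of the same length, TATAAA in 12.4% and TGANTCA in 6.75%. A window was found for 8 of the 9 genes, Krt19 being the exception, and TATAAA was found in those of Krt20 and Vim. A match is a description of letters, and its absence covers this window only.

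Values below are log2 intensities of probe sets, differences are OVE26 minus FVB on that scale, and each gene is represented by its brightest probe set unless stated. A gene was called when its limma p, adjusted by Benjamini-Hochberg over all 18193 genes, was under 0.05. Array medians lay between 5.07 and 5.15, and the mean Pearson correlation of an array with the other arrays over probe sets, which are not independent replicates, ranged from 0.967 (OVE26 2) and 0.969 (OVE26 4) to 0.981. Precision is limited by having 9 arrays: across genes, differences had a median standard error of 0.16. The podocyte label was checked on 7 of 10 listed markers that were measured. Podxl, the main surface sialomucin of podocytes, averaged 12.99 ± 0.04 over OVE26 arrays (SD, n = 5) and 13.10 ± 0.02 over FVB arrays (SD, n = 4). Nphs1, the slit diaphragm protein nephrin, averaged 11.40 ± 0.29 over OVE26 arrays and 11.90 ± 0.23 over FVB arrays. Xist exceeded the Y-linked genes in OVE26 2, OVE26 3, OVE26 5 and FVB 2 and lay below them in the other arrays, so the groups held different shares of the sexes.

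Of the 5 keratin genes, 4 rose in OVE26 arrays and Krt20 did not pass. Krt18 rose 6.75-fold, Krt8 5.00-fold, Krt19 2.47-fold and Krt7 2.10-fold. In bulk arrays, more cells of a type in a sort and more RNA of a gene in each cell cannot be told apart. None of the 4 other filament genes, Vim, Nes, Des and Lmna, passed in either direction by limma, nor did any of them or Krt20 have an unadjusted p under 0.05 in this main fit. These 4 called genes of 9 stand beside 0.473% of all genes called higher, and 0 of 9 beside 0.132% called lower. Since the 9 genes were chosen with earlier results of these data known, the share describes them and is no test. In 4 of the 9 genes all OVE26 arrays exceeded all FVB arrays, beside 3.64% of all genes, and in 0 of 9 the reverse held, beside 2.62%.

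**Figure D1:**
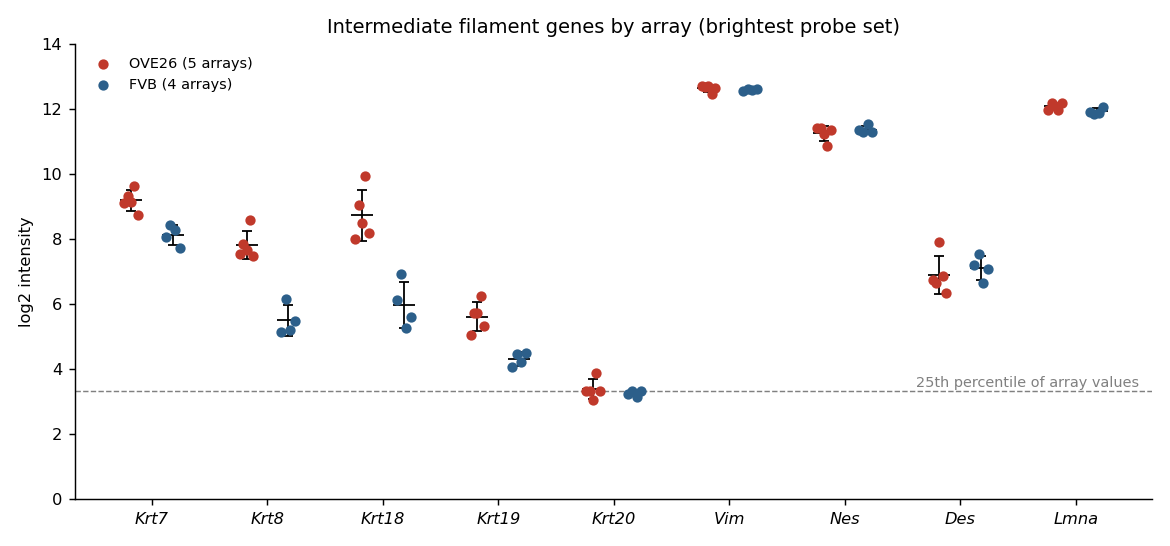
Log2 intensity (vertical axis) of the brightest probe set of each of the 9 genes in 5 OVE26 arrays (red, left) and 4 FVB arrays (blue, right). Points are arrays, bars are the mean and SD, and the dashed line is the mean 25th percentile of array values (3.31). Krt7, Krt8, Krt18 and Krt19 do not overlap between groups, whereas Krt20 lies at the dashed line and Vim, Nes, Des and Lmna overlap.

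Krt8 encodes the type II keratin of simple epithelia. It had 7.54, 7.83, 7.65, 8.57 and 7.48 in OVE26 arrays 1 to 5, against 5.14, 6.17, 5.20 and 5.47 in FVB arrays 1 to 4. In this probe set OVE26 4 was the highest diabetic array and FVB 2 the highest normal array, and the lowest OVE26 value lay 1.31 above the highest FVB value. The means were 7.82 ± 0.44 over OVE26 arrays (SD, n = 5) and 5.49 ± 0.47 over FVB arrays (SD, n = 4), a difference of 2.32 (SE 0.27, 95% interval 1.72 to 2.92, limma adjusted p = 0.00978). Krt8 ranked 9 among all genes by p. Its other probe sets, 1435989_x_at and 1420647_a_at, gave 2.57 and 2.77, so all 3 pointed the same way. In 1420647_a_at the highest array was OVE26 2 (8.68), just above OVE26 4 (8.60), and in 1435989_x_at these arrays were nearly level (8.53 in OVE26 2 and 8.58 in OVE26 4). The probe set used, 1423691_x_at, carries the platform's suffix for sets in which some probes may also match other transcripts, and 1420647_a_at does not.

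Krt18 encodes the type I partner of Krt8. It had 8.002, 9.03, 8.50, 9.93 and 8.17 in OVE26 arrays 1 to 5, against 6.11, 6.91, 5.25 and 5.61 in FVB arrays 1 to 4. As for Krt8, OVE26 4 and FVB 2 were the highest arrays of their groups, and the groups were separated by 1.09. The means were 8.73 ± 0.78 over OVE26 arrays (SD, n = 5) and 5.97 ± 0.72 over FVB arrays (SD, n = 4), a difference of 2.76 (SE 0.43, 95% interval 1.79 to 3.72, limma adjusted p = 0.0283). Krt18 is measured by 1 probe set, 1448169_at.

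Krt7 and Krt19, a type II and a type I keratin of ducts and other simple epithelia, rose by smaller amounts. Krt7 (probe set 1423952_a_at) had 9.12, 9.33, 9.12, 9.63 and 8.75 in OVE26 arrays 1 to 5, against 8.06, 8.43, 8.28 and 7.72 in FVB arrays 1 to 4. The lowest OVE26 array, OVE26 5, was 0.32 above the highest FVB array, FVB 2. The difference was 1.07 (SE 0.20, 95% interval 0.63 to 1.51, limma adjusted p = 0.0481), from means of 9.19 ± 0.32 over OVE26 arrays (SD, n = 5) and 8.12 ± 0.31 over FVB arrays (SD, n = 4). Krt19 had 5.04, 5.72, 5.73, 6.23 and 5.33 in OVE26 arrays 1 to 5, against 4.07, 4.47, 4.21 and 4.48 in FVB arrays 1 to 4. OVE26 4 was again the highest array, and the groups did not overlap at its probe set, 1417156_at. The difference was 1.30 (SE 0.22, 95% interval 0.81 to 1.79, limma adjusted p = 0.0367), from means of 5.61 ± 0.45 over OVE26 arrays (SD, n = 5) and 4.31 ± 0.20 over FVB arrays (SD, n = 4).

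Krt20 (1426284_at), a type I keratin of gut and of the surface cells of the urothelium, was at the low end of the arrays. It had 3.32, 3.32, 3.06, 3.87 and 3.32 in OVE26 arrays 1 to 5, against 3.22, 3.32, 3.14 and 3.32 in FVB arrays 1 to 4. Only OVE26 4 stood clearly above the mean 25th percentile of array values of 3.31, below which signal was not told from background here. The difference was 0.13 (SE 0.15, 95% interval -0.21 to 0.47, limma adjusted p = 0.764).

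Vimentin and nestin, the filament proteins of the normal podocyte body and major processes, differed between groups by less than the SD among OVE26 arrays. Vim had 12.70, 12.66, 12.71, 12.45 and 12.63 in OVE26 arrays 1 to 5, against 12.54, 12.62, 12.60 and 12.62 in FVB arrays 1 to 4. Its difference was 0.04 (SE 0.09, 95% interval -0.17 to 0.24, limma adjusted p = 0.905), and its 3 probe sets ranged from 0.03 to 0.09. The groups overlapped, and the lowest array was OVE26 4. Nes had 11.43, 11.40, 11.24, 10.86 and 11.36 in OVE26 arrays 1 to 5, against 11.34, 11.28, 11.54 and 11.30 in FVB arrays 1 to 4. Its difference was -0.11 (SE 0.13, 95% interval -0.41 to 0.19, limma adjusted p = 0.784), and its 3 probe sets ranged from -0.23 to -0.11. OVE26 4 was the lowest array here too. These intervals lie below the lower bounds for Krt8, Krt18, Krt19 and Krt7, although the difference between genes was not tested.

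Des, the muscle-type filament protein, had 6.74, 6.66, 7.89, 6.86 and 6.33 in OVE26 arrays 1 to 5, against 7.21, 7.53, 6.63 and 7.07 in FVB arrays 1 to 4. OVE26 3 was the highest of all 9 arrays and OVE26 5 the lowest, so diabetic arrays spanned the normal range. The difference was -0.22 (SE 0.30, 95% interval -0.88 to 0.45, limma adjusted p = 0.805), and this wide interval does not exclude a change of either sign. With 1 array left out it ran from -0.47 without OVE26 3 to -0.07 without OVE26 5 (-0.08 without FVB 2), and with the macrophage score as covariate it was -1.12, with no call by limma (adjusted p = 0.332). Its other probe set, 1426732_at, was near background and gave 0.16. Lmna had 11.98, 12.18, 12.08, 11.97 and 12.17 in OVE26 arrays 1 to 5, against 11.91, 11.84, 11.87 and 12.08 in FVB arrays 1 to 4. The groups overlapped through FVB 4, and the difference was 0.16 (SE 0.10, 95% interval -0.06 to 0.38, limma adjusted p = 0.511). All 5 Lmna probe sets had small positive differences, from 0.06 to 0.47, and none passed.

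When all 45037 probe sets that are not controls were fitted as separate features, 4 of the 20 passed, namely the 3 of Krt8 and that of Krt18, beside 0.195% of probe sets called higher, and 0 of 20 were called lower, beside 0.0755%. Krt8 then had limma adjusted p-values of 0.0176, 0.0370 and 0.0361, and Krt18 of 0.0417. Krt19 (adjusted p = 0.0546) and Krt7 (adjusted p = 0.0694) missed the threshold in that fit. In 6 of the 20 probe sets, those of Krt7, Krt8, Krt18 and Krt19, the OVE26 values all exceeded the FVB values, beside 2.67% of probe sets in general, and in 0 of the 20 all lay below, beside 2.78%. Probe sets of 1 gene read the same RNA and are no replicates of each other.

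**Figure D2:**
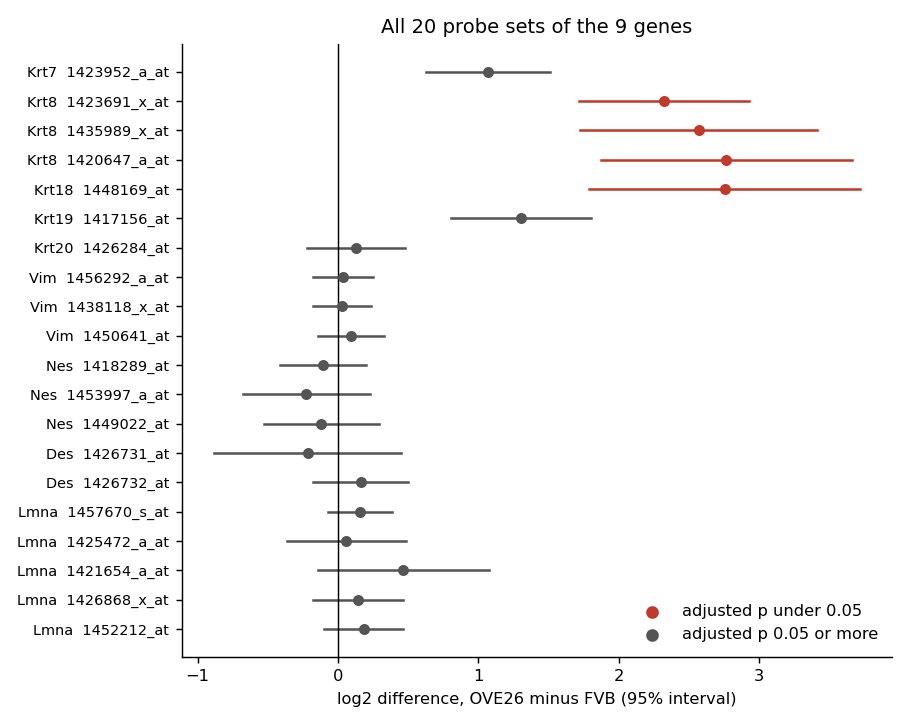
Log2 difference, OVE26 minus FVB (horizontal axis), with its 95% interval for each of the 20 probe sets, fitted among 45037 probe sets. Red points passed an adjusted p of 0.05. The 3 Krt8 sets and the Krt18 set lie between 2.32 and 2.77, Krt7 and Krt19 have intervals above 0 without passing, and the intervals of the other sets cross 0.

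The calls differed in how they depended on single arrays. With 1 array left out, Krt8 passed in 8 of 9 fits, Krt18 in 4, Krt19 in 3 and Krt7 in 1. Krt8 missed only without FVB 3 (difference 2.22, adjusted p = 0.0540), and Krt7 passed only without FVB 2 (1.17, adjusted p = 0.0257). Over these fits the differences ran from 2.13 to 2.55 for Krt8, from 2.45 to 3.07 for Krt18, from 1.15 to 1.45 for Krt19 and from 0.93 to 1.18 for Krt7. So the sizes changed little while the adjusted p-values, which also depend on the other genes of the table, moved across the threshold.

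**Figure D3:**
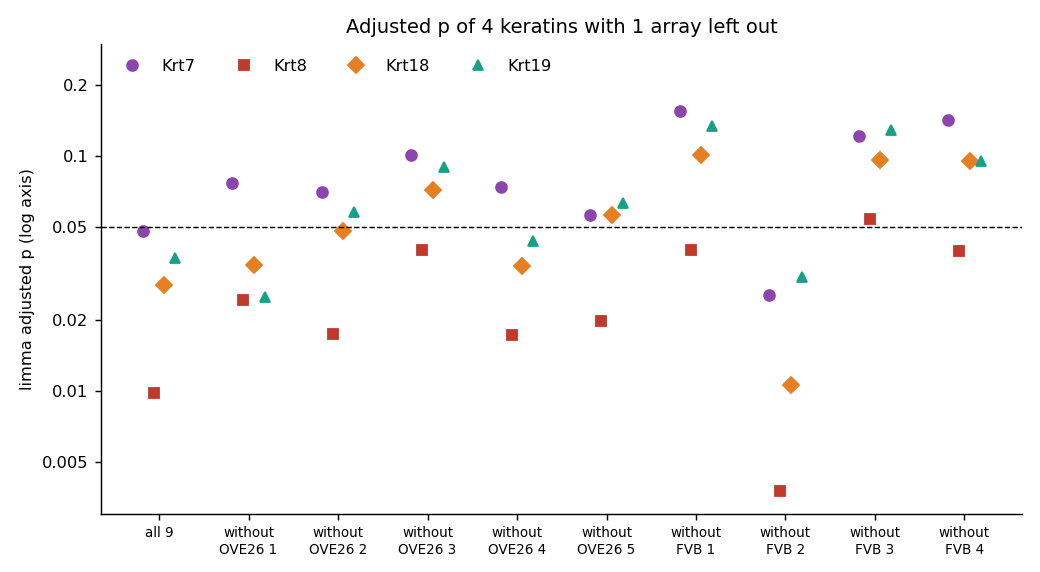
Limma adjusted p (vertical log axis) of Krt7, Krt8, Krt18 and Krt19 with all 9 arrays and with each array left out (horizontal axis), the dashed line being 0.05. Krt8 stays below the line except without FVB 3 (0.0540), while Krt7 is below it with all arrays and without FVB 2 only.

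The keratins were also compared within the arrays split by Xist, a split chosen after the data were seen. Where Xist lay below the Y-linked genes (OVE26 1 and 4, FVB 1, 3 and 4) the differences were 2.79 for Krt8, 3.31 for Krt18, 1.38 for Krt19 and 1.36 for Krt7. Among those with Xist above (OVE26 2, 3 and 5, FVB 2) they were 1.49, 1.66, 1.12 and 0.64 in the same order, and the lone FVB array is assumed to vary like the others. All differences were positive within both splits. In the first split none passed by limma (adjusted p from 0.0726 to 0.129 for Krt8, Krt18 and Krt7 and 0.224 for Krt19). The second split has 1 FVB array, which is also the highest FVB array for Krt7, Krt8 and Krt18, and its values are given with no reading of its p-values. With the difference of Xist and the Y-linked genes as a covariate Krt8 passed (2.28, adjusted p = 0.0269), whereas Krt18 (2.65, adjusted p = 0.0650), Krt19 (1.28, adjusted p = 0.0769) and Krt7 (1.08, adjusted p = 0.0903) did not.

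Some markers of keratin-bearing tubule cells rose too. Of 8 principal cell markers of the collecting duct 1 rose (Fxyd4) and 7 had an unadjusted p under 0.05, with a median difference of 1.18. Of 5 measured intercalated cell markers 2 rose (Atp6v0d2 and Slc26a4) and 3 had an unadjusted p under 0.05, with a median of 1.38. Of all genes 15.1% had an unadjusted p under 0.05 and 0.473% were called higher. Every such count here and below is to be read against those shares. All OVE26 arrays exceeded all FVB arrays for 5 of the principal and 3 of the intercalated cell markers, beside 3.64% of all genes. The median over all genes was 0.01. The summed intensity of the principal cell list ran from 888 to 2676 in OVE26 and from 289 to 465 in FVB arrays, and that of the intercalated cell list from 488 to 2200 in OVE26 and from 102 to 308 in FVB arrays. Their defining markers differed by 0.60 for Aqp2, the water channel of principal cells (adjusted p = 0.138), 1.64 for Aqp3 (adjusted p = 0.0905) and 2.88 for the proton pump subunit gene Atp6v0d2 (adjusted p = 0.0290). With 1 array left out, Fxyd4 passed in 9 of 9 fits, Atp6v0d2 in 3 and Slc26a4 in 2. With the difference of Xist and the Y-linked genes as a covariate, Fxyd4 passed (limma adjusted p = 0.0249). Atp6v0d2 (limma adjusted p = 0.0584) and Slc26a4 (limma adjusted p = 0.0657) did not.

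Both lists were highest in OVE26 2. Krt7, Krt18, Krt19 and Krt8 at its brightest probe set were highest in OVE26 4, where the sums were 1009 and 928, while Krt8 at 1420647_a_at was highest in OVE26 2. For 7 thick limb and distal convoluted tubule markers, none of which passed by limma (4 at an unadjusted p under 0.05), the sums were 3784 to 7605 in OVE26 and 1805 to 7751 in FVB arrays, with a median difference of 0.58. FVB 2 was the highest array of that list and also the FVB array with the highest Krt7, Krt8 and Krt18. Its defining genes Umod and Slc12a1 averaged 11.16 ± 0.25 and 10.14 ± 0.29 over OVE26 arrays (SD, n = 5), against 10.94 ± 0.77 and 9.59 ± 1.00 over FVB arrays (SD, n = 4), so tubule RNA was present in sorts of both groups. With the score of the 3 distal lists as a covariate the differences were 1.84 for Krt8, 1.71 for Krt18, 0.97 for Krt19 and 0.87 for Krt7 (limma adjusted p from 0.409 to 0.535), a fit in which 0 of 18193 genes were called in either direction and 1649 had an unadjusted p under 0.05, these 4 keratins among them. That score, a mean of centred log2 values, was higher in every OVE26 array than in any FVB array, so the fit cannot tell it apart from group. The summed intensity of the 3 lists did overlap, at 5542 to 12481 in OVE26 and 2197 to 8482 in FVB arrays, the highest FVB array being FVB 2. The part of tubule RNA in the keratin differences beyond the values above was not tested.

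**Figure D4:**
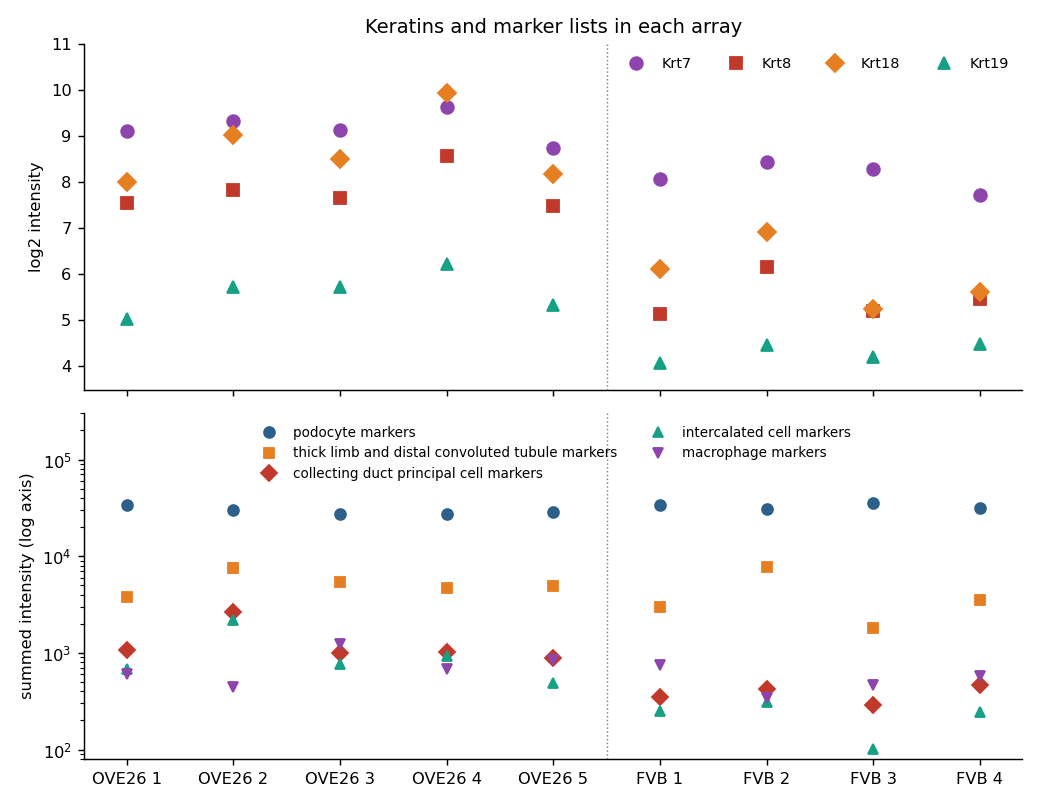
Log2 intensity of the brightest probe set of Krt7, Krt8, Krt18 and Krt19 in each array (top) and the summed intensity of 5 marker lists in the same arrays (bottom, log axis), with OVE26 arrays left of the dotted line. These keratin probe sets are highest in OVE26 4 and the collecting duct and intercalated cell sums in OVE26 2 (2676 and 2200), where a Krt8 probe set not drawn, 1420647_a_at, is also highest.

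Other cell types that could carry these filament genes gave the following values. Of 6 measured parietal epithelial markers 0 passed by limma (4 at an unadjusted p under 0.05), with a median of 0.56, sums of 2901 to 4690 in OVE26 and 1926 to 3528 in FVB arrays, and differences of 0.04 for Cldn1 and 0.47 for Pax8. Over the 6 parietal markers the differences ran from -0.49 to 1.83, with 5 positive and 1 negative. Of 6 urothelial markers 0 passed, with a median of -0.01, sums of 164 to 243 in OVE26 and 185 to 208 in FVB arrays. Their defining uroplakins Upk1a and Upk1b averaged 4.27 and 3.48 over OVE26 arrays, against 4.38 and 3.40 over FVB arrays. No urothelial marker had an unadjusted p under 0.05, and the part of these cell types in the keratin differences was not tested.

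Among markers that Vim and Des accompany, 0 of 7 mesangial and smooth muscle genes passed by limma (1 at an unadjusted p under 0.05), with a median of -0.15, sums of 3126 to 4922 in OVE26 and 2940 to 5517 in FVB arrays, and Pdgfrb and Itga8 differing by -0.18 and -0.24. Of 8 glomerular endothelial markers 0 passed (1 at an unadjusted p under 0.05), with a median of -0.34, sums of 4749 to 7982 in OVE26 and 6102 to 9669 in FVB arrays. Pecam1 and Cdh5 differed by 0.03 and -0.19. Of 7 proximal tubule markers 0 passed (0 at an unadjusted p under 0.05), with a median of -0.08 and sums of 527 to 2955 in OVE26 and 1440 to 2171 in FVB arrays, Lrp2 and Cubn differing by -0.44 and 0.30. The 8 macrophage markers had 0 calls (4 at an unadjusted p under 0.05) and a median of 0.49, with sums of 447 to 1235 in OVE26 and 337 to 756 in FVB arrays, Cd68 and Adgre1 differing by 0.26 and 0.61. For 3 of these 8 all OVE26 arrays exceeded all FVB arrays, as for 3.64% of all genes. Fitted with the macrophage score as covariate, the 4 keratins had differences of 2.33 (Krt8), 2.82 (Krt18), 1.16 (Krt19) and 1.34 (Krt7) and did not pass (limma adjusted p from 0.212 to 0.301). In that fit 0 of 18193 genes were called in either direction, and 2490 had an unadjusted p under 0.05, these 4 keratins among them. The macrophage score was higher in every OVE26 array than in any FVB array, so the fit cannot tell it apart from group. The 7 podocyte markers had 0 calls (2 at an unadjusted p under 0.05) and a median of -0.23, with sums of 27351 to 33632 in OVE26 and 30770 to 35428 in FVB arrays. Of these 7 markers, 6 had negative differences. For 3 of them all OVE26 arrays lay below all FVB arrays, as for 2.62% of all genes.

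Beyond the 5 keratins above, no member of the keratin family passed. Of 48 keratin genes measured, 4 rose, all of them among the genes described above, and 0 of the other 43 passed in either direction by limma (2 had an unadjusted p under 0.05). The median difference of those 43 was 0.03 and their range -0.34 to 0.31, against a median of 0.01 over all genes. In 13 of the 43 neither group mean reached the mean 25th percentile of the arrays, so that a change there was not measurable. The 3 smallest p-values belonged to Krt10, a keratin of the upper epidermis (-0.34, adjusted p = 0.194), Krt13, of stratified mucosa (0.31, adjusted p = 0.232, below that percentile in both groups), and the hair keratin Krt81 (-0.21, adjusted p = 0.369).

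Among 12 other intermediate filament genes, 1 rose and 11 did not pass, with a median of -0.01. Nefm, the medium neurofilament chain of neurons, had 4.50, 6.24, 5.83, 4.50 and 5.77 in OVE26 arrays 1 to 5, against 2.61, 3.91, 2.05 and 2.25 in FVB arrays 1 to 4. The FVB mean of 2.71 lay below the 25th percentile, and Nefm was at least 3.74-fold higher in OVE26 arrays, taking each FVB array at no less than its own 25th percentile (fitted difference 2.66, SE 0.47, limma adjusted p = 0.0437). Without 1 array Nefm passed in 2 of 9 fits (adjusted p from 0.0106 to 0.143), and it missed the threshold among single probe sets (adjusted p = 0.0626). Nefl, the light neurofilament chain that Nefm assembles with, was singled out after its values were seen. It had 8.14, 9.46, 8.80, 5.50 and 9.03 in OVE26 arrays 1 to 5, against 5.24, 6.74, 4.39 and 3.05 in FVB arrays 1 to 4. OVE26 4 lay within the FVB range, and the difference of 3.33 (SE 0.88) did not pass (limma adjusted p = 0.118), except with array weights (3.79, adjusted p = 0.0411). At its second probe set all OVE26 arrays lay above all FVB arrays, with a difference of 2.30 (SE 0.47), which did not pass either (adjusted p = 0.0861). Synm, encoding synemin, a partner of desmin and vimentin, was likewise chosen after its values were seen. It had 7.45, 7.66, 7.49, 7.08 and 7.21 in OVE26 arrays 1 to 5, against 7.94, 7.92, 8.08 and 7.72 in FVB arrays 1 to 4. All OVE26 arrays lay below all FVB arrays, as for 2.62% of genes in the table, and the difference of -0.53 (SE 0.14) did not pass (limma adjusted p = 0.114). The heavy chain Nefh differed by -0.02 (adjusted p = 0.984).

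**Figure D5:**
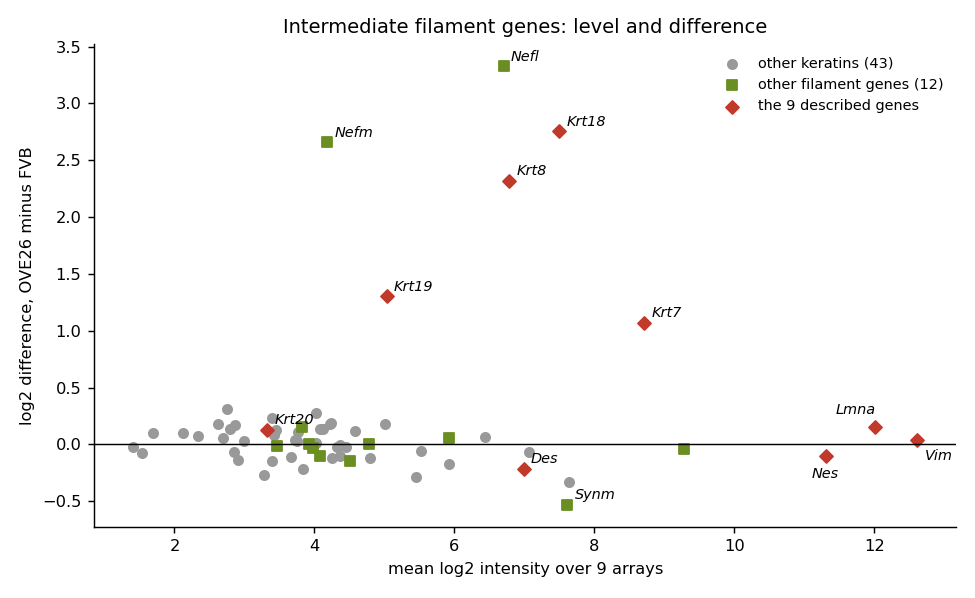
Log2 difference, OVE26 minus FVB (vertical axis), against the mean log2 intensity over 9 arrays (horizontal axis) for the 9 described genes, 43 other keratins and 12 other filament genes. The other keratins lie between -0.34 and 0.31, while Krt8, Krt18, Nefm and Nefl lie above 2.3.

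Desmosomes and cytolinkers anchor keratin filaments to cell junctions. Of 16 such genes 1 rose and 15 did not pass (6 of the 16 at an unadjusted p under 0.05), with a median of 0.32. Perp, a tetraspan membrane protein of desmosomes, had 8.63, 8.61, 8.96, 9.28 and 8.65 in OVE26 arrays 1 to 5, against 7.08, 7.59, 7.29 and 7.57 in FVB arrays 1 to 4. OVE26 4 was the highest array and the groups were 1.02 apart, with a difference of 1.44 (SE 0.17, limma adjusted p = 0.00997). After their values were seen, 2 further genes were picked out, neither of which passed by limma. Dsp, desmoplakin, which ties keratins to desmosomes, differed by 1.03 at its brightest probe set (adjusted p = 0.0818). There all 5 OVE26 arrays lay above all 4 FVB arrays, as for 3.64% of genes, with a gap of 0.08. Its other probe sets differed by 0.97 and 0.56 and did not separate the groups. They did not pass among single probe sets (limma adjusted p = 0.122 and 0.311). Pkp2, the desmosomal plaque protein plakophilin 2, differed by -0.59 (adjusted p = 0.124). Of 14 nuclear lamina and envelope genes 0 passed in either direction by limma (3 at an unadjusted p under 0.05), with a median of -0.02. The 3 with the smallest p were Syne1, which links nucleus and cytoskeleton (-0.71, adjusted p = 0.108), Lemd2, an inner nuclear membrane protein (-0.43, adjusted p = 0.296), and Tor1a, an ATPase of the nuclear envelope lumen (0.39, adjusted p = 0.324). Of 8 filament chaperones and binding proteins 0 passed (1 at an unadjusted p under 0.05), with a median of 0.04, and the heat shock protein gene Hspb1 (1.07, adjusted p = 0.194), the co-chaperone gene Bag3 (0.46, adjusted p = 0.537) and Fam83h (-0.14, adjusted p = 0.704) had the smallest p.

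Likeness of pattern was measured as the root mean square distance between log2 profiles over the 9 arrays, each centred on its own mean, and is given as a description. Krt8 and Krt18 were 0.42 apart, and Krt8 was among the 5 named genes nearest to Krt18, after Mt2 (0.26), Wfdc2 (0.31), Mt1 (0.38) and Clu (0.41). The genes nearest to Krt8 were Sema3c, a secreted semaphorin (0.31), Lgals3, galectin-3 (0.32), S100a6, a calcium-binding protein (0.33), the claudin gene Cldn7 (0.33) and Defb1, an epithelial defensin (0.35). Krt7 and Krt19 were 0.32 apart. The nearest to Krt7 were Ctsd, Slc11a2, Hook1, Stambpl1 and the desmoplakin gene Dsp, at 0.18 to 0.23, and the nearest to Krt19 were Ociad2, Perp, Prss23, Hbegf and Lgmn, at 0.19 to 0.24. Vim and Lmna were 0.12 apart and Vim and Nes 0.14, and those genes varied little over the arrays. Distances of this kind grow with the size of a change, so they group genes by size as well as by shape.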

How the data were processed

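Per the labels' protocols, a PicoPure kit gave the RNA of the sorted cells, and a NuGen kit amplified it and added biotin. The deposited values are probe set intensities, processed with RMA and Partek per the submitters' processing notes, with versions and settings not given in the sources used here. Their scale was judged linear from their range, and log2 was taken. The labels number the arrays as separate mice and give neither sex nor batch, so p-values rest on the spread between arrays, which also holds differences between sorts and amplifications.

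Control probe sets (64) were left out. The platform annotation names 1 gene for 34945 probe sets, more than 1 for 932 and leaves 9160 unnamed, and all 9 genes matched the reference table by gene identifier. Each gene was represented by its brightest probe set (9010 genes have more than 1). Groups were compared by lmFit and eBayes of limma 3.58.1, run under R 4.3.3 (2-sided, prior degrees of freedom 2.94 for genes). The fit was tested on simulated data. Fold bounds use each array's 25th percentile.

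The 9 genes and all lists were chosen with earlier results of these data known. Named genes were those past the threshold in each list, otherwise the 3 with the smallest p, the defining markers of each cell type list, and the 5 genes nearest in profile to each called member. Protein sequences were not used here. Alternatives covered filters, probe set summary, normalization, weights, covariates, a replicate block and left-out arrays.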

Additional observations from a re-analysis of the deposited data

Results flagged for a closer look

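In OVE26 4 a probe set of Vim, 1438118_x_at, was at 12.48, away from the other OVE26 arrays at 12.63 to 12.68. A probe set of Lmna, 1421654_a_at, was at 9.38 in the same array, away from the others at 7.90 to 8.29. Both exceeded Dixon's limit for a single distant value, which chance passes in about 1 in 20 groups, and 40 groups of member values were examined. The other 2 Vim probe sets were also lowest in OVE26 4 without passing that limit. Without OVE26 4 the difference of that Lmna probe set was 0.22, against 0.47 with all arrays, and that of the Vim probe set was 0.06, against 0.03.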

How the results depend on the processing

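The 4 called keratins, Krt7, Krt8, Krt18 and Krt19, had positive differences under every alternative that gave a value (25 each, and 24 for Krt19, which the filter at the 40th percentile removes). Whether they passed depended on the setting. Of the 9 genes, 4 were called higher, and so with the mean of probe sets, quantile normalization, median centring, a trended robust fit, array weights and a threshold of 0.1. The count was 3 with the filter, 2 with each probe set tested singly, 1 with the sex covariate, without OVE26 2 and OVE26 4 together, and at a threshold of 0.01. It was 0 with the distal nephron covariate, the macrophage covariate, and within either Xist split (added after the data were seen; 1 of the splits has a single FVB array, so its 0 says nothing of stability). Leaving out 1 array gave 0 to 4, being 0 without FVB 3 and 1 without OVE26 3, OVE26 5, FVB 1 or FVB 4. In every one of these fits Krt8, Krt18 and Krt7 had an unadjusted p under 0.05, except Krt7 within the arrays above the Xist split, and so did Krt19 wherever it was fitted. Of the 5 genes not called, Des had an unadjusted p under 0.05 with the macrophage covariate and without OVE26 3, and Lmna in the trended robust fit. The count called higher over the keratin family was the same as over the 9 genes in each setting, and no gene of either list was called lower in any setting. Of the 20 probe sets, 4 passed, against 6 with array weights or a threshold of 0.1, 5 with the filter, 1 with the sex covariate or without OVE26 2 and OVE26 4, and 0 with either other covariate, within either Xist split or at a threshold of 0.01. Leaving out 1 array gave 0 to 6. Over all genes, leaving out 1 array gave 8 to 285 called higher and 0 to 82 lower, against 86 and 24 with all arrays. Without FVB 3 these were 8 and 0, without FVB 2 they were 285 and 82, and with array weights 284 and 112. The cause of these changes was not tested. Fits with fewer arrays or an added term have fewer residual degrees of freedom. The distal nephron and macrophage scores also separated the groups completely, so those fits cannot tell score from group. In them the SE of Krt8 was 0.46 and 0.52, against 0.30 with the sex covariate and 0.27 with none.

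The labels do not say whether replicate numbers pair the mice. Same-numbered arrays had correlations of their deviations of 0.129, 0.0421, -0.212 and 0.00762. Those of unlike-numbered arrays ran from -0.276 to 0.230, and such values cannot settle whether mice were paired. With the replicate block 0 of the 9 genes and 0 of the 20 probe sets passed, and over all genes 19 were called higher and 0 lower. The differences were 2.41 for Krt8 (limma adjusted p = 0.0514), 2.89 for Krt18, 1.37 for Krt19 and 1.18 for Krt7. Small differences that did not pass changed sign, which were Nes with the macrophage covariate (0.12) and above the Xist split (0.05), Krt20 without OVE26 2 and OVE26 4 (-0.015) and above the Xist split (-0.089), and Vim below it (-0.0085). Signal near the 25th percentile limits what could be measured for Krt20 and for 13 other keratins.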

Other observations

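At their brightest probe sets Nefl and Nefm followed the Xist split within each group. In OVE26 arrays Nefl was at 9.46, 8.80 and 9.03 in the 3 arrays with Xist above the Y-linked genes, against 8.14 and 5.50 in the other arrays, and in FVB arrays at 6.74 in the 1 array with Xist above, against 5.24, 4.39 and 3.05. Nefm was at 6.24, 5.83 and 5.77 in the OVE26 arrays with Xist above, against 4.50 and 4.50, and at 3.91 in the FVB array with Xist above, against 2.61, 2.05 and 2.25. At the second probe set of Nefl, OVE26 3 (Xist above, 5.333) and OVE26 1 (Xist below, 5.330) were nearly level. FVB 2 was the highest FVB array there (4.14). Nefh, with means near the 25th percentile, did not follow the split. It was at 3.25, 3.56 and 3.48 in the OVE26 arrays with Xist above, against 3.09 and 3.93. In FVB arrays Nefh was lowest in FVB 2 (3.12). The pattern of Nefl and Nefm was noticed in the data and was not tested. With the difference of Xist and the Y-linked genes as a covariate, Nefm differed between OVE26 and FVB by 2.11 (limma adjusted p = 0.00274). Nefl differed by 2.46 in that fit (limma adjusted p = 0.122). The Nefm values of the FVB arrays with Xist below lie under the mean 25th percentile of array values of 3.31, so they have no order.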
